A study of Mus musculus with 18 samples.

Results

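The comparison asked where the response to FGF2 on day 3 depended on the culture: in murine embryonic stem (ES) cells grown on PA6 stromal cells (ES/PA6 co-cultures), or in PA6 cells by themselves (PA6 mono-cultures). Of the 18 Illumina bead arrays of the series, 12 entered it, as 3 biological replicates of 4 groups. These were ES/PA6 without growth factors (-GFs), ES/PA6 with recombinant FGF2 at 20 ng/ml, PA6 -GFs and PA6 with the same FGF2. The other 6 arrays were 3 of ES/PA6 and 3 of PA6 cultures with BMP4 at 10 ng/ml. They shared the normalization, the choice of the brightest probe and the estimate of the spread, and entered the last comparison. All groups were kept in the same serum-free medium in 6-well plates, and each replicate gave 1 well per condition. The ES cells were of a line that carries green fluorescent protein knocked in at the τ locus, and the PA6 cells were a bone marrow stromal line, so each culture type stands for 1 ES line and 1 stromal line. For every gene, the change from -GFs to FGF2 in the mono-cultures was subtracted from the change in the co-cultures, both on the log2 scale of normalized intensity. This difference of the effects is positive where FGF2 raised a gene more, or lowered it less, in the co-cultures. A total of 15865 genes had a probe detected on at least 3 of the 12 arrays and were tested, each through its brightest probe.

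FGF2 acts on receptor tyrosine kinases of the FGFR family, which signal through RAS and ERK and switch on their own dampers, such as the dual specificity phosphatases and the Sprouty proteins. In ES cells, FGF signalling through ERK is known to help cells leave the naive state. In mesenchymal and stromal cells, FGFs are mitogens that also act on matrix, lipid and inflammatory genes.

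The labelled culture types were checked against their markers before any result was read. The summed linear level of 6 ES markers was 25477 to 30908 on the 6 co-culture arrays and 277 to 329 on the 6 mono-culture arrays, where 5 of the 6 were not detected. The summed level of 10 stromal markers was 63370 to 86003 in ES/PA6 -GFs and 51632 to 72630 in ES/PA6 FGF2 arrays, against 141910 to 145831 in PA6 -GFs and 142870 to 162519 in PA6 FGF2 arrays. A co-culture array therefore held RNA of both lines, with a stromal marker signal below that of any mono-culture array. The co-culture ranges with FGF2 and -GFs overlapped, but the sums were not compared within same-numbered arrays. Over the 27 tested stromal matrix genes and PA6 markers, the median FGF2 effect was -0.30 in co-cultures and -0.16 in mono-cultures. In such bulk samples, fewer cells of a type and less RNA per cell cannot be told apart, and the part of the culture mixture in the differences below was not tested. The number of detected probes was 19829 to 20412 per co-culture array and 17125 to 18109 per mono-culture array.

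FGF2 effects differed between the culture types for 1196 genes, 7.54% of the 15865 tested, at an adjusted p under 0.1 and a log2 difference over 1. The difference was positive for 645 of them (4.07% of the genes tested) and negative for 551 (3.47%), and 3848 genes had an unadjusted p under 0.05. The median difference over all genes was 0.0013 and the median SE was 0.268. Across genes, the 2 FGF2 effects, which share no array, had a Pearson r of 0.178 and a Spearman rho of 0.0738, as a description only, since genes are not independent replicates. Taken singly, the FGF2 effect was called for 545 genes (3.44%) in ES/PA6 and 852 (5.37%) in PA6 cultures, and 95 genes (0.599%) were called in both with the same sign. Of the 1196 genes, 517 had a called effect in the mono-cultures alone, 317 in the co-cultures alone, 23 in both with the same sign and 10 in both with opposite signs, and 329 were called in neither, so that only the difference passed. The estimated effects pointed in opposite directions for 804 of the 1196, which is 67.2% of them and 5.07% of the genes tested. Over all genes tested, 48.7% had estimates of opposite sign. Choosing genes by the difference of the 2 effects itself favours opposite signs, so these shares are a description only. Among the remaining 392 of the 1196 genes, with the same sign, the effect was larger in the mono-cultures for 263 and larger in the co-cultures for 129.

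**Figure D1:**
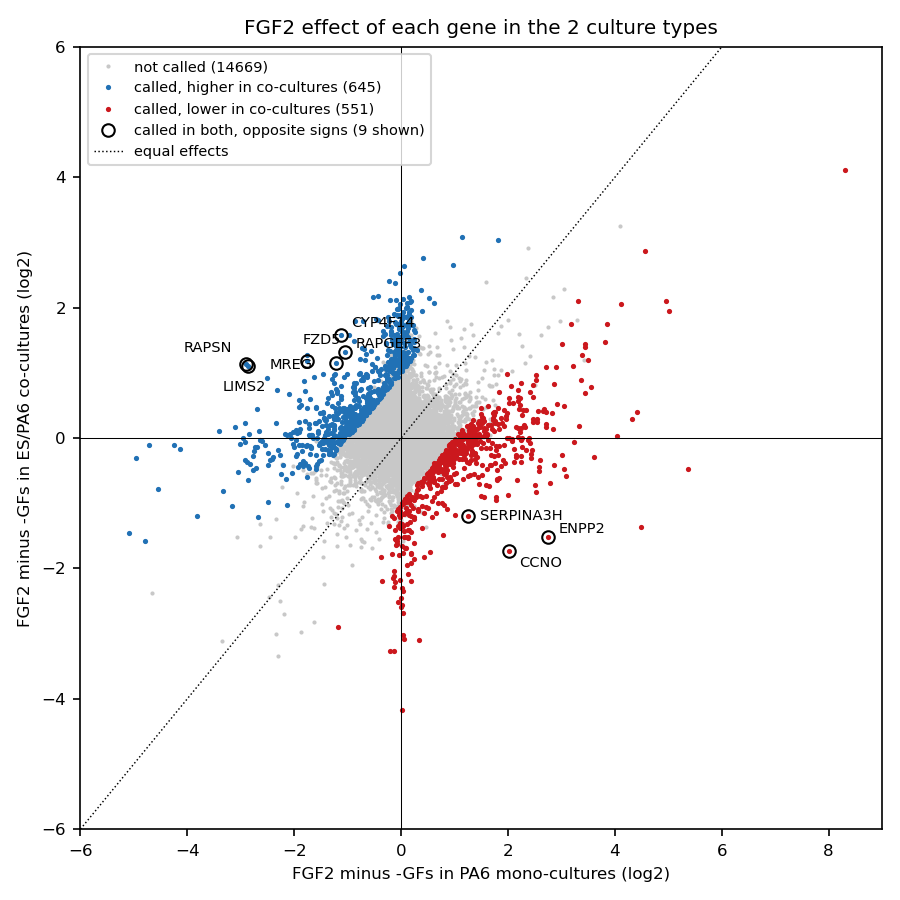
Each point is 1 gene, with the FGF2 minus -GFs change in PA6 mono-cultures on the x axis and in ES/PA6 co-cultures on the y axis (both log2, means of 3 arrays per group). The dotted line marks equal effects, and the 645 genes called higher (blue) and 551 called lower (red) lie off it on either side, with 9 of the 10 genes called in both culture types with opposite signs circled.

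Detection limited what a difference could show. All 4 groups had a detected array for 660 of the 1196 genes, of which 482 had estimates of opposite sign. Another 261 genes were not detected in either mono-culture group, and 74 in neither co-culture group, so that their difference rested on the change in the other culture type. Seen as levels, the difference also says whether FGF2 brought the culture types closer. Of the 660 genes, the co-cultures and mono-cultures lay closer together with FGF2 than without for 394 and further apart for 266, and the median distance between them was 1.37 without and 1.11 with FGF2 on the log2 scale. Of all 12115 tested genes detected in all 4 groups, called or not, 6440 lay closer and 5675 further apart. Their median distance was 0.70 without and 0.67 with FGF2. For the other 536 called genes the split was 240 closer and 296 further apart, which makes 634 and 562 of all 1196, and over all genes tested 51.9% lay closer with FGF2.

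The 10 genes called in both culture types with opposite signs, 0.063% of the genes tested, included RAPSN, LIMS2, FZD5, MREG, CYP4F14 and RAPGEF3, which rose in co-cultures and fell in mono-cultures, and ENPP2, CCNO and SERPINA3H, which did the reverse. In all 10, the 3 FGF2 arrays did not overlap the 3 -GFs arrays in either culture type. Such separation in opposite directions was seen for 3.1% of all genes tested, and for the 10 it adds nothing independent to the calls. The count was 16 without ES/PA6 -GFs replicate 3, 6 without ES/PA6 FGF2 replicate 1 and 5 without PA6 -GFs replicate 2, and 3 with quantile normalization without background correction. The per-array levels of these 9 genes follow as log2 intensity.

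RAPSN (probe ILMN_2723095) encodes rapsyn, which clusters acetylcholine receptors at the neuromuscular junction. It read 6.89, 6.65 and 7.17 on the ES/PA6 -GFs arrays, 8.17, 8.06 and 7.89 on the ES/PA6 FGF2 arrays, 9.69, 9.03 and 9.06 on the PA6 -GFs arrays and 6.95, 5.41 and 6.72 on the PA6 FGF2 arrays. The co-cultures lay below the mono-cultures without FGF2 and above them with it. The result was a difference of 4.03 ± 0.442 (SE, adjusted p 3.17e-05), from FGF2 effects of 1.13 in co-cultures and -2.90 in mono-cultures. Its other 2 probes gave differences of 3.90 and 2.03, and the dimmest of the 3 did not show the rise in co-cultures. LIMS2 (probe ILMN_2738345), a LIM domain adaptor at integrin adhesions, read 6.25, 6.61 and 6.05 without and 7.76, 7.24 and 7.25 with FGF2 in the co-cultures, against 9.48, 9.58 and 9.42 without and 6.35, 6.76 and 6.77 with FGF2 in the mono-cultures. Its difference was 3.98 ± 0.291 (SE, adjusted p 8.19e-07), and its other 2 probes gave 3.80 and 3.17. FZD5 (probe ILMN_3161263), a Frizzled receptor for WNT ligands, was bright in all 4 groups. Its levels were 10.82, 10.78 and 11.08 without and 12.09, 12 and 12.16 with FGF2 in the co-cultures, against 11.49, 11.59 and 11.58 without and 9.91, 9.43 and 10.04 with FGF2 in the mono-cultures. The difference was 2.95 ± 0.201 (SE, adjusted p 4.33e-07), with 1.43 and 1.51 at its 2 dimmer probes. Those probes rose in co-cultures by 1.12 and 1.28, but their mono-culture effects were only -0.31 and -0.23, against -1.76 at the brightest. The fall in mono-cultures thus rested on the brightest probe.

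MREG (probe ILMN_2976159), melanoregulin, which acts in organelle transport, read 12.01, 11.05 and 11.30 without and 13.00, 12.58 and 12.25 with FGF2 in the co-cultures, against 6.99, 7.98 and 7.16 without and 5.88, 6.87 and 5.73 with FGF2 in the mono-cultures. Its difference of 2.37 ± 0.47 (SE, adjusted p 0.00413) came from changes of similar size, 1.15 and -1.21, at levels that were far apart. CYP4F14, a cytochrome P450 of the fatty acid hydroxylase family, and RAPGEF3, the cAMP-activated exchange factor EPAC1 for the small GTPase RAP1, were not detected on any ES/PA6 -GFs array, so their rise in co-cultures is a bound. CYP4F14 (probe ILMN_1231625) read 5.5, 5.43 and 5.01 without and 7.41, 6.77 and 6.51 with FGF2 in the co-cultures, against 7.59, 7.89 and 6.44 without and 6.09, 6.27 and 6.18 with FGF2 in the mono-cultures. It was at least 2.01-fold higher with FGF2 in the co-cultures and fell by 1.13 in the mono-cultures, and the effects differed by at least 4.4-fold (adjusted p 0.00205). RAPGEF3 (probe ILMN_1256335) read 5.54, 5.67 and 5.76 without and 7.53, 7.21 and 6.19 with FGF2 in the co-cultures, against 9.40, 9.77 and 9.26 without and 8.21, 8.70 and 8.39 with FGF2 in the mono-cultures. This was a rise of at least 2.13-fold in co-cultures against an effect of -1.04 in mono-cultures, and the effects differed by at least 4.39-fold (adjusted p 0.00103).

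Among the genes that fell in the co-cultures and rose in the mono-cultures, ENPP2 (probe ILMN_2954474) encodes autotaxin, the secreted enzyme that makes lysophosphatidic acid. It read 10.46, 10.98 and 10.05 on the ES/PA6 -GFs arrays, 9.38, 9.29 and 8.24 on the ES/PA6 FGF2 arrays, 8.40, 7.19 and 5.86 on the PA6 -GFs arrays and 9.89, 10.48 and 9.31 on the PA6 FGF2 arrays. Without FGF2 every co-culture array lay above every mono-culture array, and with FGF2 the order was mixed, with 2 of the 3 mono-culture arrays above all co-culture arrays. The difference was -4.27 ± 0.699 (SE, adjusted p 0.00102), and -1.65 at its second probe. CCNO (probe ILMN_2736471), cyclin O, read 11.51, 11.07 and 10.89 without and 9.92, 9.55 and 8.82 with FGF2 in the co-cultures, against 5.77, 5.38 and 5.29 without and 7.49, 7.46 and 7.52 with FGF2 in the mono-cultures. It was not detected on any PA6 -GFs array, and its effects differed by at least 7.56-fold (adjusted p 9.23e-06). SERPINA3H (probe ILMN_2889832), 1 of the clustered serine protease inhibitors of the SERPINA3 family, read 7.36, 7.95 and 8.37 without and 6.40, 6.45 and 7.24 with FGF2 in the co-cultures, against 7.11, 7.74 and 7.22 without and 9.10, 7.94 and 8.76 with FGF2 in the mono-cultures. The difference was -2.44 ± 0.426 (SE, adjusted p 0.00163), and cross-hybridisation among the near-identical family members cannot be told apart on these probes.

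**Figure D2:**
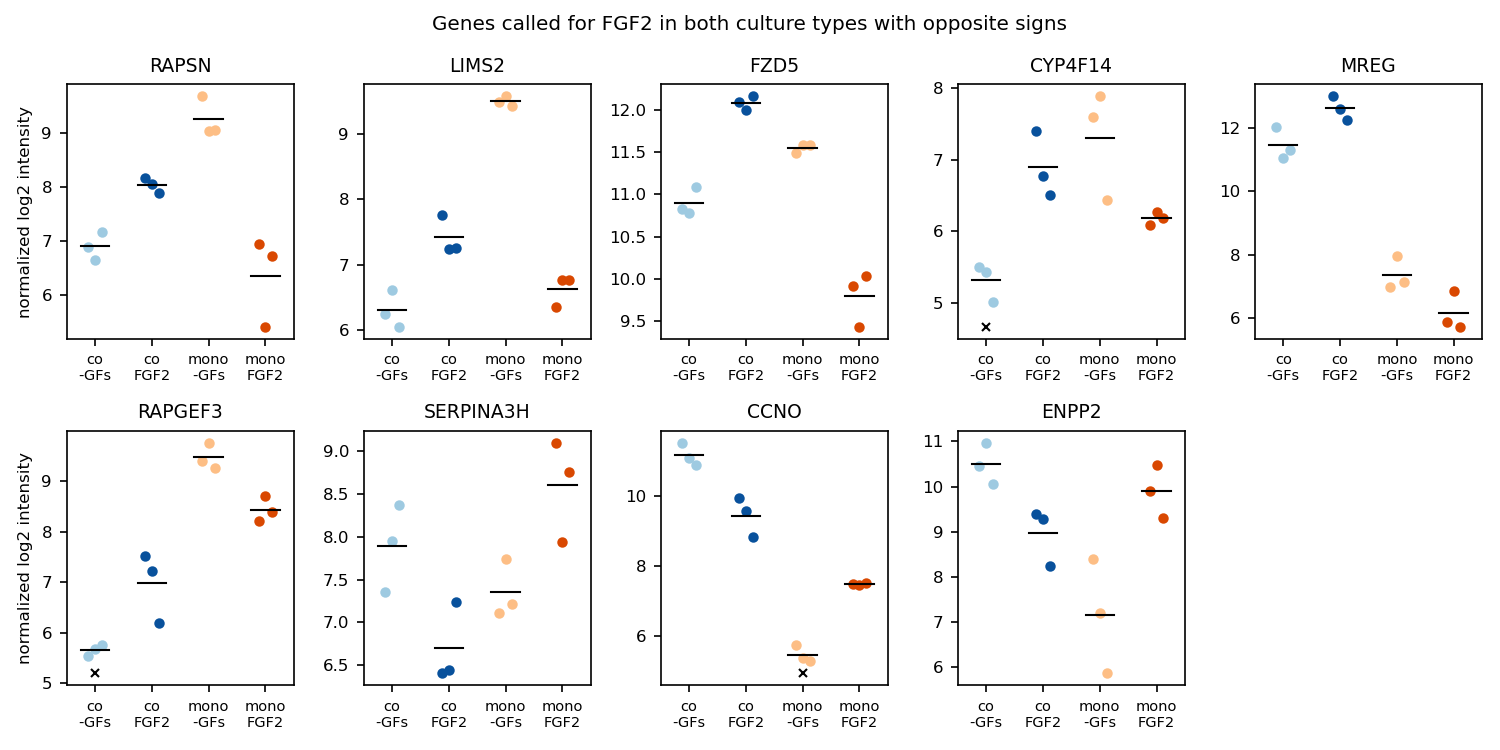
Normalized log2 intensity of 9 of the 10 genes called for FGF2 in both culture types with opposite signs, 1 panel per gene, ordered by the difference of the effects. Points are single arrays, lines are means of 3 arrays, co is ES/PA6 and mono is PA6, and a cross marks a group in which no array detected the gene. In every panel the FGF2 points lie beyond the -GFs points in both culture types and in opposite directions.

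Beyond these 10 genes, 203 of the 804 called genes with estimates of opposite sign had an unadjusted p under 0.05 for FGF2 in each culture type. ALDH3A1, an aldehyde dehydrogenase, was 1 of these. It read 7.85, 8.05 and 7.63 without and 8.69, 8.87 and 8.75 with FGF2 in the co-cultures, against 8.46, 8.95 and 8.69 without and 6.24, 6.67 and 5.66 with FGF2 in the mono-cultures. Without FGF2 the co-cultures lay just below the mono-cultures, and with FGF2 they lay above the mono-cultures by more than 2 log2 units, for a difference of the effects of 3.44 ± 0.289 (SE, adjusted p 2.96e-06). The endothelial receptor tyrosine kinase TEK, which binds angiopoietins, read 8.77, 8.25 and 8.47 without and 9.43, 8.83 and 9.04 with FGF2 in the co-cultures, against 8.31, 7.87 and 8.01 without and 6.74, 6.04 and 6.27 with FGF2 in the mono-cultures. Its effect of 0.61 in co-cultures missed the threshold (adjusted p 0.114). Within the pairs of same-numbered co-culture arrays it rose by 0.66, 0.58 and 0.57. With these pairs as a block the adjusted p was 0.0276, and only the fold threshold was missed. The fall of TEK in mono-cultures passed (adjusted p 3.69e-05), and the difference was 2.31 ± 0.301 (SE, adjusted p 0.000159).

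Sterol and fatty acid synthesis was the gene list with the most called members. Of 26 genes listed, 23 were tested and 19 were called, all lower in the co-cultures (82.6%, against 3.47% of all genes). The median difference over the 23 was -2.29, from a median FGF2 effect of -0.26 in co-cultures and 1.87 in mono-cultures, against a median difference of 0.0013 over all genes. The called genes run along the cholesterol pathway, among them MVK and MVD, IDI1 and FDPS, SQLE and LSS, and the late enzymes CYP51, SC4MOL, NSDHL and DHCR7. SREBF2, the transcription factor that drives these genes, STARD4, a sterol carrier, ACAT2, an acetyl-CoA acetyltransferase, and the desaturase and elongase SCD2 and ELOVL6 were called too. FDPS, which makes farnesyl diphosphate, read 13.77, 13.90 and 14.02 on the ES/PA6 -GFs arrays, 13.13, 13.58 and 13.74 on the ES/PA6 FGF2 arrays, 10.74, 10.89 and 10.69 on the PA6 -GFs arrays and 13.65, 13.61 and 13.65 on the PA6 FGF2 arrays. Its PA6 -GFs arrays stood more than 2 log2 units below all others, and with FGF2 the mono-cultures lay within the range of the co-cultures, for a difference of -3.28 ± 0.25 (SE, adjusted p 1.05e-06). CYP51 read 11.32, 11.25 and 11.30 without and 10.74, 10.96 and 11.18 with FGF2 in the co-cultures, against 9.66, 9.60 and 9.47 without and 12.30, 12.10 and 12.13 with FGF2 in the mono-cultures, with a difference of -2.93 ± 0.222 (SE, adjusted p 1.05e-06), and was the highest in the mono-cultures with FGF2.

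SREBF2 itself read 10.11, 10.40 and 10.53 without and 9.96, 10.16 and 10.08 with FGF2 in the co-cultures, against 8.62, 8.22 and 8.30 without and 10.07, 9.95 and 10.37 with FGF2 in the mono-cultures. Its effects differed by -2.03 ± 0.247 (SE, adjusted p 9.11e-05), with -1.57 at its second probe. Over the 19 called genes, every co-culture mean lay above the mono-culture mean without FGF2, by a median of 1.96 log2 units. With FGF2 the median distance was -0.44. For MVK, the -GFs arrays of the culture types overlapped near the detection limit (5.3, 5.6 and 6.0 in co-cultures, 5.5, 5.1 and 5.3 in mono-cultures). Of the 23 tested members, 18 had a detected array in all 4 groups. The 4 tested members not called were INSIG1 (-0.55), ACLY (-0.36), FASN (-0.40) and SREBF1 (0.15). Leaving out any 1 array left 19 called members each time.

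**Figure D3:**
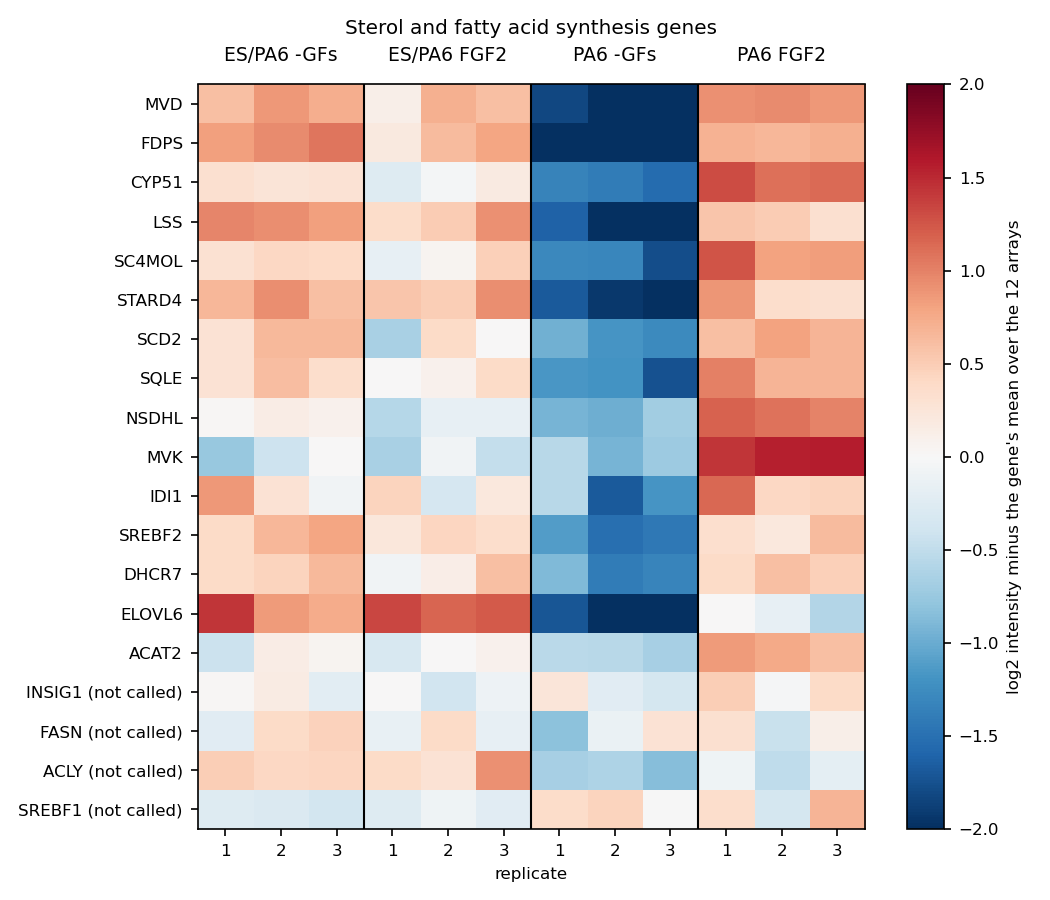
Log2 intensity of 19 of the 23 tested sterol and fatty acid synthesis genes (15 called) on the 12 arrays, each gene relative to its own mean over the arrays (colour scale ends at 2 log2 units on either side), ordered by the difference of the FGF2 effects. The PA6 -GFs columns are the lowest for most called genes, while the PA6 FGF2 columns lie near or above the ES/PA6 FGF2 columns for most, with ELOVL6 as an exception.

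Acute phase, cytokine and chemokine genes also had many called members. Of 21 tested members, 11 were called lower (52.4%, against 3.47% of all genes) and 1 higher (4.76%, against 4.07%) in the co-cultures, with a median difference of -1.12. SAA3, an acute phase serum amyloid, had the largest negative difference among genes detected in all groups. It read 11.61, 12.01 and 10.22 on the ES/PA6 -GFs arrays, 10.32, 10.74 and 8.69 on the ES/PA6 FGF2 arrays, 9.06, 8.93 and 8.38 on the PA6 -GFs arrays and 13.70, 13.15 and 13.01 on the PA6 FGF2 arrays. FGF2 raised it on all mono-culture arrays above every other array, while in the co-cultures the FGF2 and -GFs arrays overlapped and the effect of -1.36 was not called. Within the numbered pairs of co-cultures, however, it fell by 1.29, 1.26 and 1.53, and with these pairs as a block the effect was called (adjusted p 0.000852), so that SAA3 then moved in opposite directions. The difference was -5.85 ± 0.847 (SE, adjusted p 0.000383). SERPINA3N, a secreted protease inhibitor, rose in both culture types but by unequal amounts, reading 9.77, 7.88 and 7.07 without and 12.98, 12.50 and 11.58 with FGF2 in the co-cultures, against 6.83, 5.6 and 6.71 without and 14.74, 14.80 and 14.54 with FGF2 in the mono-cultures. Its effects of 4.11 and 8.31 differed by -4.20 ± 0.76 (SE, adjusted p 0.00212). SERPINA3F was not detected on any PA6 -GFs array and differed by at least 26.5-fold (adjusted p 0.000679), and SERPINA3G by -2.42 ± 0.458 (SE, adjusted p 0.00292), with the same limit on telling this family apart.

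LCN2, an iron-sequestering lipocalin, read 15.18, 14.57 and 13.17 without and 15.35, 14.94 and 13.83 with FGF2 in the co-cultures, against 12.03, 10.98 and 11.24 without and 15.90, 15.97 and 15.61 with FGF2 in the mono-cultures. The mono-cultures with FGF2 lay above all other arrays, and the difference was -4.01 ± 0.776 (SE, adjusted p 0.00347). CCL2, a monocyte chemokine, read 13.51, 13.04 and 11.36 without and 12.81, 12.69 and 11.08 with FGF2 in the co-cultures, against 10.59, 10.29 and 10.84 without and 13.17, 13.35 and 12.95 with FGF2 in the mono-cultures, for a difference of -3.03 ± 0.677 (SE, adjusted p 0.00903). The co-culture groups overlapped, while each numbered pair changed downwards, by -0.71, -0.36 and -0.28 (adjusted p with the pairs as a block 0.197). IL6 was detected with FGF2 in the mono-cultures at 7.94, 8.28 and 8.28 and on no PA6 -GFs array, and its effects differed by at least 3.24-fold (adjusted p 0.000212). SLPI, a leukocyte protease inhibitor, rose in both, by 2.10 in co-cultures and 4.96 in mono-cultures, with a difference of -2.86 ± 0.63 (SE, adjusted p 0.00829). The list was not of a piece: CEBPB (-0.40), CXCL1 (-0.07), C3 (-0.33), LIF (0.27) and CCL5 (0.42) were not called. Without any 1 array, 9 to 11 members were called lower. For SAA3, SERPINA3N, LCN2 and CCL2, replicate 3 of the ES/PA6 cultures read lowest of its group both with and without FGF2.

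Further large negative differences were of genes called higher with FGF2 in the mono-cultures and not called in the co-cultures. RGS16, a regulator of G protein signalling, read 8.68, 9.61 and 9.78 without and 9.42, 9.73 and 9.79 with FGF2 in the co-cultures, against 6.11, 6.56 and 7.21 without and 11.03, 10.82 and 11.01 with FGF2 in the mono-cultures. Its difference was -4.04 ± 0.398 (SE, adjusted p 1.04e-05). HSD11B1, which regenerates active glucocorticoid, read 14.43, 14.32 and 13.57 without and 14.18, 14.37 and 13.87 with FGF2 in the co-cultures, against 11.89, 11.01 and 11.52 without and 15.43, 15.65 and 15.48 with FGF2 in the mono-cultures. Its mono-culture arrays went from the lowest to the highest of the 12, for a difference of -4.01 ± 0.467 (SE, adjusted p 5.51e-05). Its other probes gave -4.08 and -4.11. ABCC3, an organic anion transporter, differed by -3.91 ± 0.729 (SE, adjusted p 0.00268), RAB15, a small GTPase, by -3.68 ± 0.338 (SE, adjusted p 6.18e-06), and the chemokine CCL9 by -3.53 ± 0.563 (SE, adjusted p 0.000872). LOC666559, a name without a current symbol here, differed by -3.48 ± 0.269 (SE, adjusted p 1.06e-06).

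Large positive differences were of genes that FGF2 lowered in the mono-cultures. TINAG, an extracellular matrix glycoprotein first known from basement membranes, read 5.72, 5.88 and 6.12 on the ES/PA6 -GFs arrays, 5.80, 5.56 and 6.05 on the ES/PA6 FGF2 arrays, 10.71, 10.78 and 10.81 on the PA6 -GFs arrays and 6.58, 6.13 and 6.88 on the PA6 FGF2 arrays. Only the PA6 -GFs arrays held it at a high level, and FGF2 removed most of that signal, for a difference of 4.14 ± 0.265 (SE, adjusted p 2.91e-07). TINAG did not pass the filter of detection on at least 3 of 6 arrays of each culture type. Its co-culture levels lay near the detection limit, where a fall could hardly show. MGLL, which breaks down monoacylglycerols, read 7.26, 7.74 and 7.22 without and 7.93, 7.85 and 7.79 with FGF2 in the co-cultures, against 10.51, 10.49 and 10.41 without and 7.75, 7.88 and 7.70 with FGF2 in the mono-cultures, with a difference of 3.14 ± 0.468 (SE, adjusted p 0.000482). TWIST2, a basic helix-loop-helix factor of mesenchyme, read 7.38, 8.34 and 7.64 without and 8.35, 9.12 and 8.13 with FGF2 in the co-cultures, against 12.28, 12.42 and 12.48 without and 9.81, 10.27 and 10.14 with FGF2 in the mono-cultures. It fell in the mono-cultures and had a difference of 3.06 ± 0.403 (SE, adjusted p 0.000173). Within the numbered pairs the co-cultures rose by 0.96, 0.78 and 0.49, under the fold threshold (adjusted p with the pairs as a block 0.00785). PI16, a fibroblast protein, differed by 3.03 ± 0.649 (SE, adjusted p 0.00686), and LOC100046120, without a current symbol here, by 3.15 ± 0.492 (SE, adjusted p 0.000737). FMOD, the collagen-binding proteoglycan fibromodulin, FAM107A and BC064033 were not detected in either co-culture group. In the mono-cultures, FGF2 lowered FMOD at least 16.8-fold, FAM107A at least 13.6-fold and BC064033 at least 9.84-fold, and the difference says nothing of a change in the co-cultures (adjusted p of the difference 1.05e-06, 1.06e-06 and 4.33e-07).

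Feedback and early response genes of the ERK pathway differed in part. Of 16 tested members, 5 were called lower (31.25%, against 3.47% of all genes) and 1 higher (6.25%, against 4.07%) in the co-cultures. DUSP6, the phosphatase that inactivates ERK, read 12.38, 12.41 and 12.28 on the ES/PA6 -GFs arrays, 12.32, 12.32 and 12.45 on the ES/PA6 FGF2 arrays, 8.67, 8.27 and 8.87 on the PA6 -GFs arrays and 10.72, 11.40 and 10.86 on the PA6 FGF2 arrays. In the co-cultures it stood high on all 6 arrays with the groups overlapping, and in the mono-cultures all FGF2 arrays lay above all -GFs arrays without reaching the co-cultures. The difference was -2.38 ± 0.273 (SE, adjusted p 4.69e-05), while the dimmer probes gave -2.20 and -1.04. ETV5, an ETS factor induced by FGF signalling, read 11.87, 11.57 and 11.58 without and 11.68, 11.48 and 11.45 with FGF2 in the co-cultures. It was not detected on any PA6 -GFs array, read 8.01, 8.80 and 7.99 with FGF2 in the mono-cultures, and differed by at least 4.3-fold (adjusted p 2.34e-05). ETV1, of the same family, differed by -1.56 ± 0.411 (SE, adjusted p 0.023) and PHLDA1 by -2.15 ± 0.374 (SE, adjusted p 0.00156). EGR1, an immediate early zinc finger factor, went the other way. It read 11.32, 10.81 and 10.63 without and 11.56, 10.81 and 10.56 with FGF2 in the co-cultures, against 11.58, 10.69 and 11.71 without and 9.43, 8.46 and 9.61 with FGF2 in the mono-cultures, a fall in the mono-cultures alone and a difference of 2.22 ± 0.494 (SE, adjusted p 0.00883). ETV4 (-0.06, interval -1.46 to 1.35) and SPRY4 (-0.27, interval -1.63 to 1.08) were not called, and their 95% intervals include differences of over 1 in either direction. Neither was detected on any PA6 -GFs array.

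Among FGF ligands and receptors, 3 of 14 tested members were called. These were 1 higher (7.14%, against 4.07% of all genes) and 2 lower (14.3%, against 3.47%). FGF5, a ligand of the primed epiblast, read 10.48, 10.83 and 10.01 on the ES/PA6 -GFs arrays and 6.02, 5.72 and 7.06 on the ES/PA6 FGF2 arrays. It was not detected in the mono-cultures, so its difference (adjusted p 4.43e-06) rested on the co-cultures, where it fell by 4.17 on the log2 scale. FGF15, a ligand of the embryo, likewise fell from 8.68, 8.48 and 7.95 to 6.40, 6.26 and 5.87 (adjusted p of the difference 0.00202). FGF18, a ligand that acts in the skeleton and lung, showed the reverse layout. It read 5.18, 5.93 and 6.09 without and 5.94, 5.72 and 5.86 with FGF2 in the co-cultures, against 8.56, 8.23 and 8.75 without and 5.63, 5.45 and 6.46 with FGF2 in the mono-cultures. It fell in the mono-cultures, with a difference of 2.77 ± 0.412 (SE, adjusted p 0.000471). Its co-culture levels lay near the detection limit, where a fall could hardly show. The receptor FGFR2 had effects of -0.81 in co-cultures and -1.26 in mono-cultures, with a difference of 0.45 (interval -0.24 to 1.14, adjusted p 0.438).

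Pluripotency genes separated by state. Of 16 tested genes of the naive state, 8 were called higher in the co-cultures and none lower, with a median difference of 1.17. Of 14 tested genes of the primed epiblast and primitive streak, 7 were called lower and none higher, with a median of -1.15. Over all genes tested, the shares were 4.07% higher and 3.47% lower. Across the alternatives of processing, 3 to 10 naive genes were called higher and at most 1 lower. For the primed list, 1 to 8 were called lower and none higher. Detection on all 12 arrays gave the lowest of these counts, 3 and 1, with only 4 members of each list tested. Only 4 of the 16 and 4 of the 14 were detected in all 4 groups. For those not detected in the mono-cultures, the difference repeats the change within the co-cultures. The naive factors KLF2, KLF4 and TBX3 were exceptions and were detected in all 4 groups. KLF4, a Kruppel-like factor of the naive network that stromal cells also express, read 9.86, 9.29 and 9.55 on the ES/PA6 -GFs arrays, 11.76, 11.00 and 11.34 on the ES/PA6 FGF2 arrays, 10.26, 10.23 and 9.96 on the PA6 -GFs arrays and 9.22, 9.36 and 9.30 on the PA6 FGF2 arrays. The co-cultures rose and the mono-cultures had an effect of -0.86 (adjusted p 0.0231), with no overlap in either, and the difference was 2.66 ± 0.339 (SE, adjusted p 0.000138). The other 2 probes gave 2.86 and 2.93. KLF2 read 12.02, 11.54 and 11.95 without and 12.74, 12.75 and 12.36 with FGF2 in the co-cultures, against 10.85, 10.99 and 10.87 without and 9.98, 9.96 and 10.09 with FGF2 in the mono-cultures. Its effects of 0.78 and -0.89 were each under the fold threshold, again with no overlap in either culture type, for a difference of 1.67 ± 0.228 (SE, adjusted p 0.00023). TBX3, a T-box factor, read 8.53, 7.77 and 8.15 without and 11.14, 10.77 and 10.80 with FGF2 in the co-cultures, against 8.12, 8.27 and 7.78 without and 8.18, 8.55 and 8.65 with FGF2 in the mono-cultures. Only the co-cultures with FGF2 stood apart, and the difference was 2.35 ± 0.301 (SE, adjusted p 0.000143), with 1.30 at its second probe.

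The other naive genes called with no loss upon leaving out any 1 array were ESRRB, TCFCP2L1 and TCL1, all undetected in the mono-cultures. TCFCP2L1 went from 11.26, 10.09 and 11.82 to 13.17, 13.32 and 13.81 in the co-cultures (adjusted p of the difference 0.00307). NANOG, a core factor, rose in co-cultures from 12.84, 11.83 and 12.74 to 13.84, 13.29 and 14.02 and was not detected in the mono-cultures. Its difference of 1.05 ± 0.474 (SE, adjusted p 0.184) missed the threshold, as it did in 21 alternatives, and it passed in 5. It passed once same-numbered replicates of a culture type were treated as blocks (adjusted p 0.0101) or with a block shared by both culture types (0.0434). It also passed with quantile (0.0489) and spline (0.0496) normalization without background correction, and with the mean of its probes (0.0832). Its second probe gave 1.38 (adjusted p 0.0649 in a limma fit of all kept probes). POU5F1, which encodes OCT4, differed by -0.19 with an interval of -0.65 to 0.27. Among primed genes, OTX2, a homeobox factor of the epiblast, fell in the co-cultures from 12.71, 12.85 and 12.68 to 10.35, 9.86 and 10.49. POU3F1, or OCT6, fell from 12.47, 12.55 and 11.54 to 9.29, 9.44 and 8.79 (adjusted p of the differences 4.43e-06 and 2.34e-05). DNMT3B, a de novo DNA methyltransferase, was detected in all 4 groups. It read 15.30, 15.48 and 15.16 without and 13.07, 13.14 and 13.13 with FGF2 in the co-cultures, against 8.97, 9.20 and 8.98 without and 8.64, 8.84 and 8.59 with FGF2 in the mono-cultures. Its difference was -1.84 ± 0.175 (SE, adjusted p 7.82e-06). Outside the naive and primed lists, LIN28, an RNA-binding protein of pluripotent cells, fell from 11.11, 11.16 and 10.50 to 8.99, 9.58 and 9.30 in the co-cultures (adjusted p of the difference 0.000704). LEF1, a transcription factor of WNT signalling, fell there from 8.78, 8.54 and 7.88 to 5.79, 6.08 and 5.62 (adjusted p of the difference 4.84e-05), and neither was detected in the mono-cultures.

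**Figure D4:**
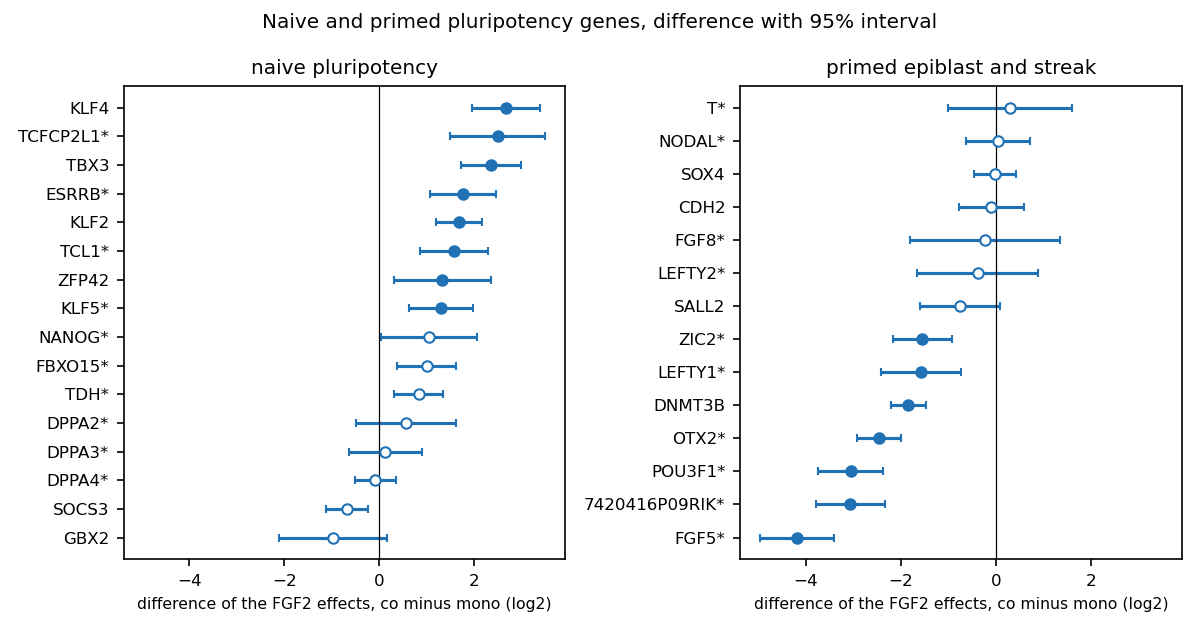
Difference of the FGF2 effects (co-culture minus mono-culture, log2) with its 95% interval for each tested gene of the naive list (left) and of the primed epiblast and streak list (right). Filled points were called, and an asterisk marks genes not detected in either mono-culture group. All 8 called naive genes lie above 0 and all 7 called primed genes below it.

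TGFβ signalling, which the study followed up, was covered by a list of its own. Of 21 tested ligands, receptors, latency proteins and targets, 3 were called lower (14.3%, against 3.47% of all genes) and none higher, and the median difference was 0.19. The count of 3 fell to 1 without ES/PA6 -GFs replicate 1 or 2, ES/PA6 FGF2 replicate 3 or PA6 -GFs replicate 2, and was 4 at most. TGFBI, a secreted matrix protein, differed by -1.61 ± 0.519 (SE, adjusted p 0.0597) and lost its call without ES/PA6 -GFs replicate 1 (-1.26) or 2 (-1.44), ES/PA6 FGF2 replicate 3 (-1.38), PA6 -GFs replicate 2 (-1.47) or PA6 FGF2 replicate 2 (-1.48). TGFB1, the ligand, read 7.24, 8.01 and 7.68 without and 8.82, 8.02 and 7.86 with FGF2 in the co-cultures, against 8.59, 8.53 and 8.38 without and 8.62, 8.78 and 8.74 with FGF2 in the mono-cultures. The arrays of the co-cultures with and without FGF2 overlapped, and the difference of 0.38 had an interval of -0.40 to 1.16 (adjusted p 0.592). The receptor TGFBR1 had a difference of -0.59 (interval -1.04 to -0.13) and fell short of the fold threshold. The receptor TGFBR2 differed by -1.0 ± 0.321 (SE, adjusted p 0.0585), at the very edge of the threshold. Its call was lost without ES/PA6 -GFs replicate 1 (-0.91) or 2 (-0.82), ES/PA6 FGF2 replicate 3 (-0.83), PA6 -GFs replicate 2 (-1.0) or 3 (-0.98), or PA6 FGF2 replicate 1 (-0.88) or 3 (-1.0). CTGF, a matricellular target of TGFβ and YAP, read 12.30, 12.67 and 13.29 on the ES/PA6 -GFs arrays, 11.81, 12.40 and 12.93 on the ES/PA6 FGF2 arrays, 9.58, 10.13 and 10.04 on the PA6 -GFs arrays and 11.59, 12.41 and 12.09 on the PA6 FGF2 arrays. It stood high on all co-culture arrays with overlap between the groups and changes of -0.49, -0.27 and -0.35 within the numbered pairs, and in the mono-cultures FGF2 raised it to the lower end of that range, for a difference of -2.48 ± 0.425 (SE, adjusted p 0.00141), with -2.34 at its second probe. ACTA2, smooth muscle actin, varied widely among the co-cultures. It read 11.74, 13.82 and 14.53 without and 10.84, 12.68 and 13.68 with FGF2 in the co-cultures, against 13.85, 13.97 and 13.87 without and 12.22, 13.03 and 12.90 with FGF2 in the mono-cultures, with an interval of the difference of -1.97 to 2.39. Within the numbered pairs the co-cultures changed by -0.90, -1.15 and -0.85. SNAI1, a repressor of epithelial genes, had -0.44 at its brighter probe (interval -1.60 to 0.72) and -1.71 at its second probe, which disagreed.

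SPP1, or osteopontin, rose under FGF2 in both culture types by unequal amounts. It read 13.08, 11.45 and 12 without and 14.74, 13.93 and 13.72 with FGF2 in the co-cultures, against 9.47, 7.57 and 8.80 without and 13.66, 13.92 and 13.29 with FGF2 in the mono-cultures. With FGF2 both culture types reached a similar level, and the difference was -3.06 ± 0.829 (SE, adjusted p 0.0267). ACE, the angiotensin converting enzyme, read 6.16, 6.08 and 5.23 without and 8.47, 7.93 and 7.38 with FGF2 in the co-cultures, against 5.81, 5.46 and 5.69 without and 8.99, 9.0 and 8.90 with FGF2 in the mono-cultures. It was not detected on any PA6 -GFs array, and its effects differed by at least 1.48-fold (adjusted p 0.052). That call was lost without ES/PA6 -GFs replicate 1 (adjusted p 0.115) or 2 (0.117), ES/PA6 FGF2 replicate 3 (0.113) or PA6 -GFs replicate 2 (0.117). SEMA7A, a membrane semaphorin, was not detected on any PA6 -GFs array. It had a difference of 0.81 (interval -0.59 to 2.22) and passed the threshold only without ES/PA6 FGF2 replicate 3 (1.46, adjusted p 0.0916). ID3 and ID4, inhibitors of DNA binding that BMPs induce, went opposite ways, with differences of -1.75 ± 0.309 (SE, adjusted p 0.00175) and 2.15 ± 0.318 (SE, adjusted p 0.00045). Both moved in the mono-cultures, by 2.20 and -1.91, against 0.45 and 0.24 in the co-cultures.

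Adipocyte genes were called higher in 4 and lower in 1 of 16 tested members, with a median difference of 0.72. The shares of all genes were 4.07% higher and 3.47% lower. Across the alternatives of processing, 1 to 6 members were called higher and 1 lower. The count of 1 higher came with detection on all 12 arrays, which tested 6 members. LPL, lipoprotein lipase, read 10.12, 10.34 and 10.77 without and 9.91, 10.14 and 10.59 with FGF2 in the co-cultures, against 9.73, 9.43 and 9.61 without and 7.59, 6.08 and 6.86 with FGF2 in the mono-cultures. Only the mono-cultures with FGF2 stood apart, lower than all others, and the difference was 2.55 ± 0.428 (SE, adjusted p 0.00121). S3-12, now named Plin4, a lipid droplet coat protein, fell in the mono-cultures from 12.56, 12.16 and 11.90 to 9.14, 9.23 and 9.23 and read 5.77, 7.17 and 5.63 without and 6.39, 6.01 and 5.87 with FGF2 in the co-cultures, with a difference of 2.91 ± 0.678 (SE, adjusted p 0.0117). Most of its co-culture levels were so low that a fall there could hardly show. CFD, the adipokine adipsin, varied among the co-cultures and read 8.90, 10.61 and 7.39 without and 7.74, 8.22 and 6.22 with FGF2 in the co-cultures, against 11.94, 12.59 and 12.24 without and 7.51, 7.91 and 6.98 with FGF2 in the mono-cultures. Within the numbered pairs the co-cultures changed by -1.16, -2.40 and -1.18, and that effect was called with the pairs as a block (adjusted p 0.0033). The call of its difference of 3.21 ± 1.04 (SE, adjusted p 0.0609) was lost without ES/PA6 -GFs replicate 3 (2.42, adjusted p 0.134), ES/PA6 FGF2 replicate 1 (3.04, 0.122) or 2 (2.80, 0.129), PA6 -GFs replicate 2 (3.04, 0.123) or PA6 FGF2 replicate 3 (2.97, 0.12). SCD1, a fatty acid desaturase in this list, had the pattern of the sterol genes and read 11.72, 11.87 and 11.80 without and 11.77, 11.49 and 11.97 with FGF2 in the co-cultures, against 10.73, 10.22 and 10.43 without and 12.04, 11.69 and 11.80 with FGF2 in the mono-cultures, with a difference of -1.43 ± 0.235 (SE, adjusted p 0.00102). The summed level of the 3 tested adipocyte markers fell with FGF2 from 7991 to 10889 down to 1363 to 1646 in the mono-cultures, and was 547 to 3078 without and 309 to 772 with FGF2 in the co-cultures.

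Of 27 tested stromal matrix genes and PA6 markers, 2 were called higher (7.41%, against 4.07% of all genes) and none lower, with a median of -0.06. The count of 2 was 4 without ES/PA6 FGF2 replicate 3 and 1 without PA6 -GFs replicate 1 or PA6 FGF2 replicate 2. COL1A1, the main fibrillar collagen, had a difference of 0.10 with an interval of -0.61 to 0.80. Of 17 tested endothelial genes, 3 were called higher (17.6%, against 4.07% of all genes) and none lower, with a median of -0.13. Across the alternatives of processing, 1 to 4 endothelial genes were called higher and at most 1 lower. Besides TEK, VWF, the von Willebrand factor, rose in the co-cultures from 6.79, 5.95 and 6.98 to 8.62, 7.68 and 8.80 and was not detected in the mono-cultures (adjusted p of the difference 0.0163). VEGFA, the main endothelial growth factor, had effects of 0.70 in co-cultures and 0.89 in mono-cultures, both under the fold threshold, with an interval of the difference of -0.82 to 0.45.

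Cell cycle genes were called lower in 6 of 23 tested members (26.1%, against 3.47% of all genes). Glycolysis and hypoxia genes were called lower in 5 (26.3%) and higher in 1 (5.26%, against 4.07% of all genes) of 19. CDC20, an activator of the anaphase promoting complex, read 13.70, 13.79 and 13.86 without and 13.66, 13.83 and 13.82 with FGF2 in the co-cultures, against 8.51, 8.5 and 8.55 without and 9.54, 10.58 and 9.56 with FGF2 in the mono-cultures. The co-cultures stood high and level on all 6 arrays, FGF2 raised the mono-cultures, and the difference was -1.38 ± 0.286 (SE, adjusted p 0.00555). The other 3 probes gave -1.41, -1.43 and -2.16. PLK1, a mitotic kinase, had the same layout and a difference of -1.43 ± 0.413 (SE, adjusted p 0.0367). LDHA, lactate dehydrogenase, read 14.49, 14.54 and 14.65 without and 14.07, 13.96 and 14.36 with FGF2 in the co-cultures, against 12.87, 12.85 and 12.96 without and 13.66, 13.91 and 13.66 with FGF2 in the mono-cultures. Its effects of -0.43 and 0.85 were each under the fold threshold, without overlap in either culture type, and the difference was -1.27 ± 0.19 (SE, adjusted p 0.000488). The glucose transporter SLC2A1 had the same layout, with effects of -0.65 and 0.93 and a difference of -1.57 ± 0.284 (SE, adjusted p 0.00205). Without any 1 array, 4 to 7 cell cycle and 3 to 6 glycolysis genes were called lower, the count of 3 coming without PA6 FGF2 replicate 2. Over all alternatives of processing, the cell cycle count was 2 to 7. CDC20 and PLK1 kept their calls in every alternative. Each other called cell cycle gene lost its call in at least 1, the weakest keeping it in 9 of 26. Dimmer probes of some of these genes gave only -0.42 to -0.15. Of 10 tested matricellular and bone genes, 3 were called higher (30.0%, against 4.07% of all genes) and 1 lower (10.0%, against 3.47%), and the count of 3 fell to 1 without ES/PA6 FGF2 replicate 1. Of 16 tested BMP targets and antagonists, 1 was called higher (6.25%) and 2 lower (12.5%). The count of 1 rose to 4 without ES/PA6 -GFs replicate 3, to 2 without ES/PA6 FGF2 replicate 1 and to 3 with the replicate block within culture types. The remaining lists are read against the same shares of all genes, 4.07% higher and 3.47% lower. Their counts were 2 higher (8.70%) and 1 lower (4.35%) of 23 WNT genes, 0 and 2 (14.3%) of 14 contractile genes, and 1 (12.5%) and 1 (12.5%) of 8 core pluripotency genes. They were 1 (6.25%) and 0 of 16 interferon-inducible genes, 0 and 1 (10.0%) of 10 early neural genes, and 0 and 1 (11.1%) of 9 blood and endoderm genes. Counts this small moved by up to 1 in either direction upon leaving out single arrays. PAX6, SOX1 and TUBB3 among neural markers, PTPRC among blood markers, and GATA4, FOXA2 and AFP among endoderm markers did not pass the filter on detection and were not tested.

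**Figure D5:**
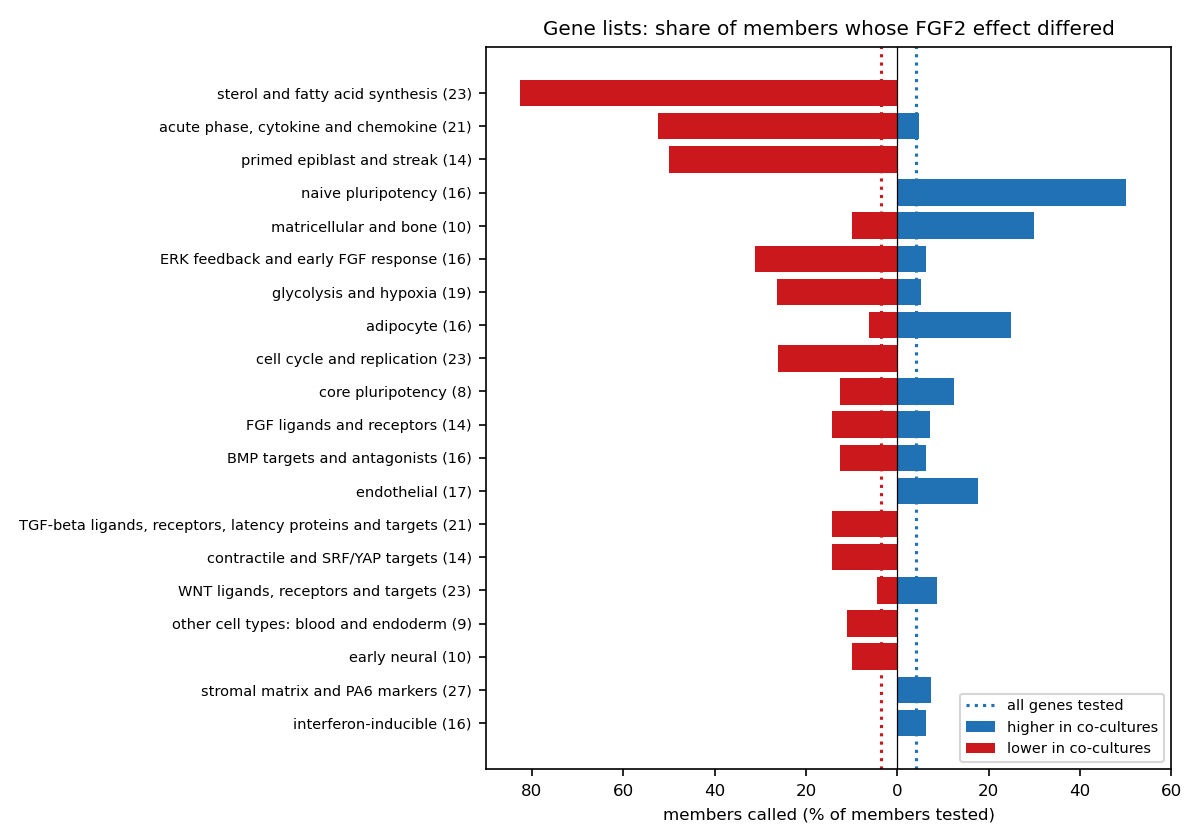
Share of the tested members of each gene list (number tested in parentheses) whose FGF2 effect was called higher (blue, right) or lower (red, left) in the co-cultures. The dotted lines are the shares over all 15865 genes, 4.07% higher and 3.47% lower, and the sterol list reaches 82.6% lower.

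The arrays with BMP4, the other growth factor of the series, allowed a related question without any -GFs array, in which the effects of BMP4 also count. In this comparison, FGF2 minus BMP4 in the co-cultures was set against FGF2 minus BMP4 in the mono-cultures, and 1063 genes, 6.7% of those tested, were called. The effects of BMP4 against -GFs differed between the culture types for 86 genes (0.542%). It shares the 6 FGF2 arrays with the comparison above, so the values are given side by side and not as separate support. All 19 called sterol and fatty acid genes were also called lower here, with differences of -2.73 to -1.09, and all 7 called primed genes, with -3.47 to -1.39. Of all 1196 genes called above, 659 (55.1%) were called here with the same sign, which is the share to read these counts against. For CYP51 the value was -2.71 beside -2.93, for SPP1 -4.73 beside -3.06, and for LIMS2 3.79 beside 3.98. Of the 8 called naive genes 3 were called here, KLF4 (1.5), TBX3 (1.01) and TCFCP2L1 (1.42), and of the 6 called cell cycle genes none. The values of all 8 (0.27 to 1.5) and all 6 (-1.11 to -0.18) had the sign of the main difference. ID3 had 0.70 (adjusted p 0.193) beside -1.75, and ID4 3.37 beside 2.15.

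Promoters of the sterol genes and of the 10 opposite-sign genes were searched for short motifs on both strands in the RefSeq table of build GRCm38.p6, which holds 250 bases before to 50 after each start. A sterol regulatory element was written as TCACNCCAC and was added after the values were known. Of the 19 called sterol and fatty acid genes, 11 matched a symbol of the table, with 13 promoters, of which 0 held it, against 1.24% of all 32851 promoters. The core of ETS sites was written as CCGGAA. It was in 2 of the 13 (of Dhcr7 and Lss) against 14.9% of all promoters, and in 1 of the 10 promoters of the 6 opposite-sign genes that matched. AP-1 sites, written as TGACTCA and as TGAGTCA, were in 2 of the 13 (of Dhcr7 and of Msmo1, the current name of SC4MOL) and in 0 of the 10, against 5.20% of all promoters. These counts describe letters in a short window and say nothing of binding.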

How the data were processed

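RNA of 18 cultures was hybridized to Illumina MouseWG-6 v2.0 bead arrays. Per the labels and methods, the authors read intensities with GenomeStudio 2011.01. The deposited table holds, per probe and array, a linear intensity without normalization (55.5 to 72879) and a detection p-value. It lists 45281 probes, and 5 stray lines were left out.

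Intensities were background-corrected, quantile normalized and put on the log2 scale with neqc (offset 16, negative controls inferred from the detection p-values), which compresses differences between dim probes. Kept were the 22160 probes that 3 or more of the 12 arrays detected at p under 0.05, and each gene was read by its brightest probe over all 18 arrays (15865 genes, 4412 with more than 1 kept probe). Where all 3 arrays of a group failed to detect a gene, folds are given as "at least" and use, per array, the higher of its own signal and the lowest signal of a detected probe. limma 3.58.1 in R 4.3.3 was fitted to 6 group means on all 18 arrays with 12 residual degrees of freedom. The BMP4 arrays thus entered the normalization, the choice of the brightest probe and the spread. With normalization on the 12 arrays alone, 1169 genes were called for the difference. The moderated test was two-sided with Benjamini-Hochberg adjustment over all genes. A gene was called at an adjusted p under 0.1 and an absolute log2 change over 1, both as in the study's methods, and 95% intervals came from the same fit. The script was tested on simulated data.

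Named genes were the 10 largest differences in each direction among called genes detected in all 4 groups, the 5 largest in each direction among called genes undetected in a group, every gene called in both culture types with opposite signs, called members of the gene lists, and 20 genes of the study's subject. Not every such gene is printed, and INSIG1, ACLY, FASN, SREBF1, CEBPB, CXCL1, C3, LIF and CCL5, uncalled list members, were chosen after their values were seen. A few genes are counted but not reported here by name. The members and lists were chosen with earlier results of these data known. Names are those of the deposited table, of which 12849 of 15865 matched a current RefSeq symbol.

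The labels number replicates 1 to 3 in every group. Deviations from the group means of same-numbered arrays correlated at 0.328 to 0.526 in the co-cultures, over 9 pairs, so the numbers pair those arrays. In the mono-cultures the range was 0.0608 to 0.169, and across culture types -0.0271 to 0.177. The main fit had no block, and fits with a block are among the alternatives.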

Additional observations from a re-analysis of the deposited data

Results flagged for a closer look

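The FGF2 effects of the co-cultures and mono-cultures differed by the test of the difference itself for 1196 genes. Genes in which, in addition, each effect was called and every array of each culture type moved the opposite way were RAPSN (difference 4.03), LIMS2 (3.98), FZD5 (2.95), CYP4F14 (2.71), MREG (2.37), RAPGEF3 (2.36), ENPP2 (-4.27), CCNO (-3.74) and SERPINA3H (-2.44), all on the log2 scale. CYP4F14, RAPGEF3 and CCNO had a group without a detected array, so their fitted values are not bounds. All are values of the brightest probe, and the other probes of FZD5 showed little fall in the mono-cultures. Groups of 3 arrays were not searched for single outlying arrays.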

How the results depend on the processing

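Of the 121 named genes that were called, 95 were called under every alternative that tested them, and 23 lost the call without at least 1 array. Leaving out each array in turn gave 1061 to 1271 genes called for the difference, 727 to 874 of them with estimates of opposite sign, 5 to 16 genes called in both culture types with opposite signs, and 922 to 1103 for FGF2 minus BMP4. In the same order, quantile normalization without background correction gave 699, 435, 3 and 634, cubic spline normalization, also without background correction, 697, 434, 3 and 632, genes detected on all 12 arrays 537, 395, 4 and 519, and no fold threshold 2479, 1792, 124 and 2016. Genes detected on at least 3 of 6 arrays of each culture type gave 730, 519 and 679 for the first, second and last counts. The filters test fewer genes, and the cause of the drop without background correction was not tested. Median scaling gave 1253 genes, 770 higher and 483 lower against 645 and 551, with the median of all genes shifted to 0.08. The replicate block within each culture type gave 1340, 874, 12 and 1247, and a block shared by both culture types 1293, 856, 12 and 1180. Of the named genes the former ended the call of ZFP42, added NANOG and changed no other call of the difference, while it added calls of the co-culture effect for SAA3, CFD, PI16 and CIDEC.

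Values that changed sign were all of genes not called. With each array left out in turn, ETV4 ranged from -0.60 to 0.81, SPRY4 from -0.60 to 0.24, ACTA2 from -0.60 to 0.99, VEGFA from -0.34 to 0.0123 and COL1A1 from -0.0831 to 0.27. ETV4 had 0.32 with quantile and with spline normalization, both without background correction, 0.0917 with median scaling and 0.0071 with array weights. ACTA2 had -0.0214 with the mean of its probes and -0.0531 with array weights, and POU5F1 0.0469 with the mean of its probes.

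Signal over background limited 261 of the 1196 genes to the co-cultures and 74 to the mono-cultures, and with 3 arrays a group the median SE of a difference was 0.268.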
